A study of Rattus norvegicus with 16 samples.

Results

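Hearts of the spontaneously hypertensive rat (SHR) were compared with hearts of the Wistar Kyoto rat (WKY) over every transcript listed for these animals. The comparison used 10 of the 16 libraries of the series, 5 from WKY and 5 from SHR. Both strains had received double distilled water by stomach tube for 10 weeks, and the labels give strain and genotype as WKY or SHR with no other allele. The other 6 libraries came from SHR given neferine, an alkaloid of lotus seed, at 10 mg/kg per day for 10 weeks, and their values were not used. Age and sex are not given in the sources used here. The labels number the libraries within each group and do not say in words that each is a separate animal, so the p-values measure the spread between these libraries.

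The files of the 10 libraries listed 32924 transcripts. Of these, 12937 carried identifiers of annotated rat transcripts (ENSRNOT) and 19987 had identifiers beginning with MERGE, taken from that name as transcripts assembled from the reads, which fell into 10844 loci by their locus number. A transcript was tested when its value was at least 1 in at least 5 of the 10 libraries, which held for 20746. The other 12178 were listed but not tested. The files do not pair the identifiers with gene symbols, and 0 of the 32924 matched the table of rat genes, so results are given by identifier and class, and the label of heart tissue could not be checked against marker genes.

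SHR is an inbred line that was bred from Wistar stock for high blood pressure, and its heart enlarges as pressure rises. WKY comes from the same stock and keeps a normal pressure, so the strains differ in inherited sequence as well as in pressure, and the parts of these in a difference cannot be told apart here. Most genes give rise to several transcripts through alternative starts, splice sites and ends. An assembler joins reads into transcript models, including models absent from the annotation, and groups models that overlap into a locus. The value of a single model depends on how reads were divided among the models of its locus. The sum over a locus depends on this less directly, but where the worth of a read differs between models it can change with the division as well.

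The deposited values are normalised abundances on a linear scale. Depth could be compared between libraries because low values stood at fixed ratios, as they do when 1 read has a fixed worth for a given transcript. Between 141 and 171 low values lay at a single ratio to WKY 1, against a median of 13 to 16 in other windows of the same width. Relative depth read from these ratios was 0.803 to 1 in WKY and 0.759 to 0.967 in SHR, and the ranges overlapped. The first principal component held 20.7% of the variance and separated the strains, with SHR libraries between 0.283 and 0.347 and WKY libraries between -0.35 and -0.294. SHR 1, whose description field reads as WKY while its title and strain read as SHR, lay at 0.345. The second component held 15.5%, and WKY 1, WKY 3, SHR 3 and SHR 4 lay at -0.301, -0.359, -0.492 and -0.327, apart from the other 6 libraries at 0.106 to 0.435. No label accounts for this split, and its part in the results was not tested beyond leaving these libraries out.

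Over all listed transcripts, limma called 641 of the 20746 tested (Benjamini-Hochberg adjusted p under 0.05), a share of 3.09%. SHR had the higher value for 337 (1.62%) and the lower for 304 (1.47%), and the unadjusted p was under 0.05 for 2426. In whole tissue, fewer cells of a type and less RNA per cell cannot be told apart. Without WKY 1, WKY 3, SHR 3 and SHR 4, limma called 421 transcripts, of which 340 were among the 641 and in the same direction. The values of the 5 WKY and 5 SHR libraries did not overlap for 1045 tested transcripts (5.04%), and 605 of these were among the 641. For 66.2% of the tested transcripts the 95% confidence interval of the difference in log2(value + 1) lay within 2-fold in either direction. At low values this does not bound the fold of the value itself.

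Among annotated transcripts 210 of 9656 passed (2.17%), with 101 higher (1.05%) and 109 lower (1.13%) in SHR, and the strains did not overlap for 437 (4.53%). Among assembled transcripts 431 of 11090 passed (3.89%), with 236 higher (2.13%) and 195 lower (1.76%), and the strains did not overlap for 608 (5.48%). Of the called transcripts, some were at least 1 in every library of one strain and under 1 in every library of the other. These were 14 higher and 21 lower annotated transcripts and 142 higher and 86 lower assembled ones. They passed the filter through 1 strain alone, so a difference was built into their selection. The shares of the 2 classes were not tested against each other, and nothing is read from the gap between them. The median standard error of a log2 difference was 0.176 for annotated and 0.262 for assembled transcripts. Without the 4 libraries that lay apart, limma called 109 annotated and 312 assembled transcripts.

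The sizes of the called differences are given by class as a description and were not tested. Leaving out transcripts listed at 0 throughout one strain, for which no fold can be given, the median log2 difference was 1.03 for 99 annotated transcripts that were higher in SHR and -1.07 for 104 that were lower. For assembled transcripts the median was 1.67 over 221 that were higher and -1.30 over 173 that were lower. A log2 difference of at least 2 in size was reached by 13 higher and 14 lower annotated transcripts, and by 94 higher and 47 lower assembled ones. These sizes keep the other transcripts that passed the filter through 1 strain alone. A larger standard error also means that only larger differences are called, so nothing is read from the gap between the classes. The scale adds 1 to each value, so it understates changes at low values.

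**Figure D1:**
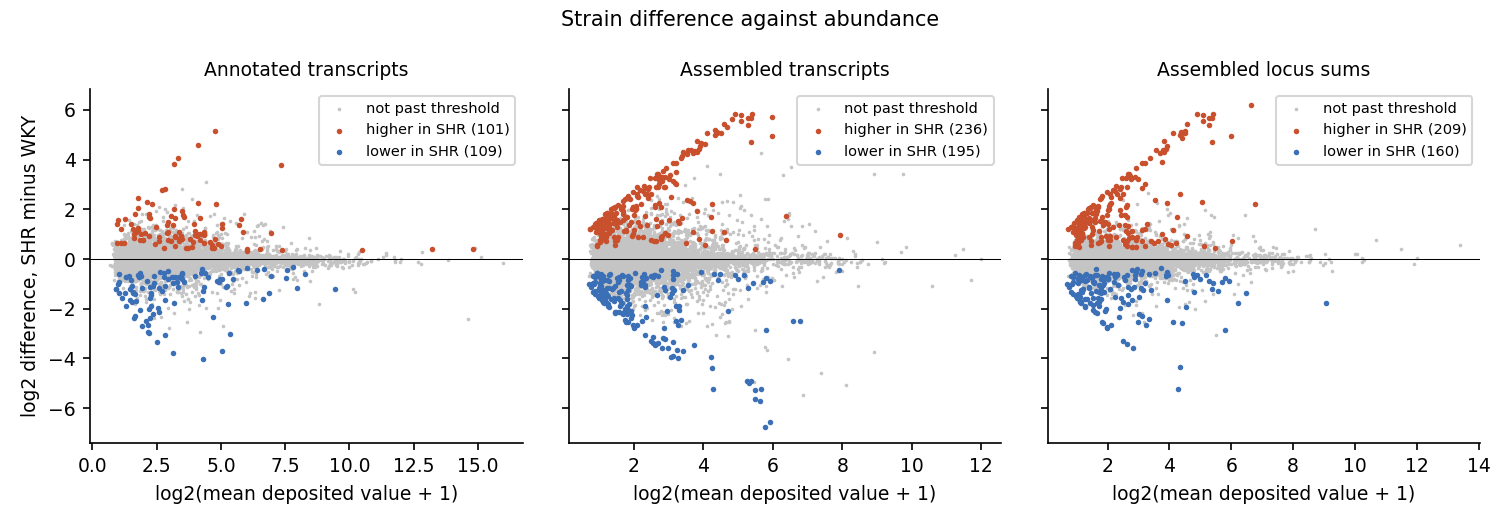
Strain difference (log2(value + 1), SHR minus WKY, y axis) against abundance (log2 of the mean deposited value + 1, x axis) for annotated transcripts, assembled transcripts and assembled locus sums. Each point is a transcript or locus, coloured where the limma adjusted p was under 0.05: 101 higher and 109 lower annotated transcripts, 236 higher and 195 lower assembled transcripts, and 209 higher and 160 lower loci.

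Among annotated transcripts whose libraries did not overlap between the strains, the largest rise in SHR was that of ENSRNOT00000088340. It was listed at 0 in WKY 1 and at 0.232, 0.215, 0.731 and 0.323 in WKY 3, 4, 5 and 6. In SHR it stood at 84.7, 76.9, 43.1, 13.6 and 44.1 in libraries 1, 2, 3, 4 and 6. The lowest SHR library was SHR 4, and it was still far above every WKY library. The means were 0.300 ± 0.268 in WKY (SD, n = 5) and 52.5 ± 28.7 in SHR (SD, n = 5). The log2 difference was 5.15 (SE 0.430, limma adjusted p 4.26e-05). The transcript was chosen for its size and passed the filter through 1 strain alone, so this p is a description.

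The largest fall by the same rule was that of ENSRNOT00000052292, which is absent from the files of the neferine-treated animals. Its values were 16.6, 21.5, 18.3, 8.33 and 11.8 in WKY 1, 3, 4, 5 and 6. In SHR they were 0.335, 0.242 and 0.180 in libraries 1, 2 and 6, and it was listed at 0 in SHR 3 and SHR 4. No SHR library came near the lowest WKY library, WKY 5. The means were 15.3 ± 5.24 in WKY (SD, n = 5) and 0.151 ± 0.149 in SHR (SD, n = 5), and the log2 difference was -3.76 (SE 0.235, limma adjusted p 4.39e-06). This transcript too was chosen for its size and passed the filter through 1 strain alone, so its p is a description.

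Among assembled transcripts the largest rise was that of MERGE.6140.3, the sole listed transcript of its locus. It was listed at 0 in all 5 WKY libraries and stood at 74.8, 55.9, 42.9, 53.3 and 61.1 in SHR 1, 2, 3, 4 and 6. The SHR mean was 57.6 ± 11.7 (SD, n = 5), and the limma adjusted p was 6.40e-09. MERGE.14292.63 showed the largest fall and is 1 of 63 listed transcripts of its locus. It stood at 114, 98.0, 101, 100.3 and 119 in WKY 1, 3, 4, 5 and 6 and was listed at 0 in all 5 SHR libraries. The WKY mean was 107 ± 9.46 (SD, n = 5), and the limma adjusted p was 7.38e-11. No fold is given for either transcript, since one strain was listed at 0 throughout. Both were chosen for size and passed the filter through 1 strain alone, so their p-values are a description.

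**Figure D2:**
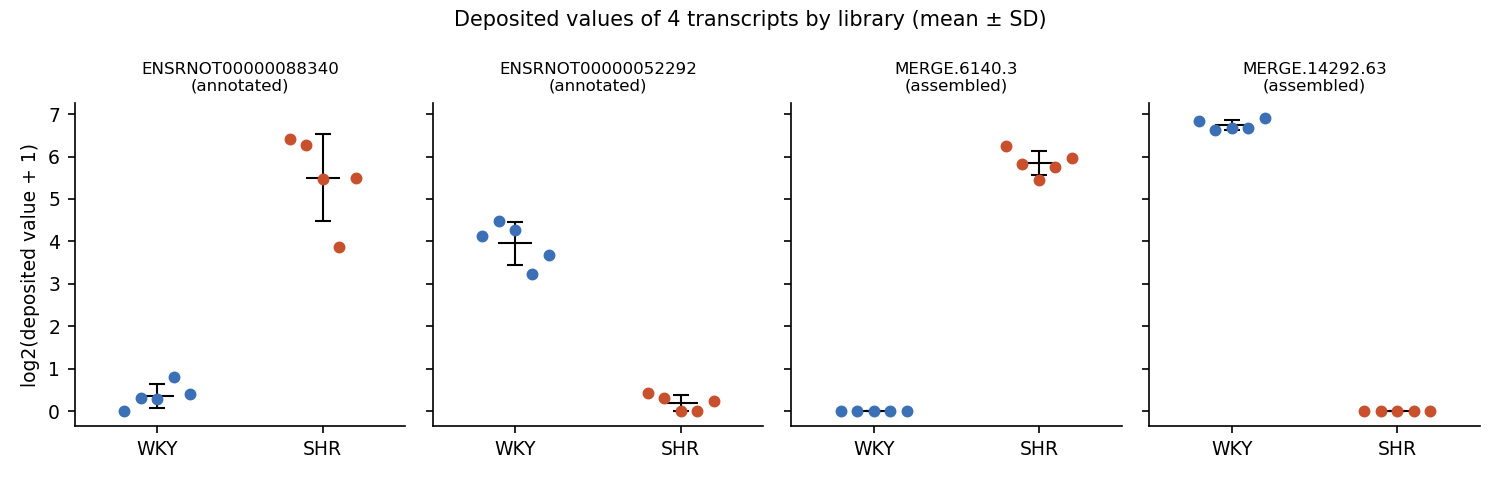
Deposited values on the log2(value + 1) scale (y axis) for the annotated and the assembled transcript with the largest rise and the largest fall in SHR, with 1 point per library and the mean ± SD over the 5 libraries of each strain (x axis). In all 4 panels the strains do not overlap, and MERGE.6140.3 lies at 0 in every WKY library and MERGE.14292.63 at 0 in every SHR library.

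Part of the differences lay on either side of a value of 1. A total of 164 tested transcripts had values of at least 1 in all 5 SHR libraries and under 1 in all 5 WKY libraries, and 118 showed the opposite. Transcripts of this kind passed the filter through 1 strain alone, so a difference was built into their selection, and limma called 156 of the 164 and 107 of the 118. Only 17 of the 164 and 27 of the 118 were listed at 0 throughout the strain with the lower values. Assembled transcripts made up 149 of the 164 and 94 of the 118, and 78 and 60 of these had a mean under 2. Annotated transcripts made up 15 and 24, with 7 and 11 at a mean under 2. At the edge of the filter, 2013 transcripts reached a value of 1 in exactly 5 libraries and had a median mean of 1.18. A further 2170 reached it in exactly 4, had a median mean of 0.962 and were not tested.

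The median size, again without transcripts at 0 throughout one strain, of a called log2 difference was 1.18 for annotated transcripts with a mean of 2 to 8 over the 10 libraries, 0.902 at 8 to 32 and 0.717 at 32 or more. Between 1.31% (mean under 2) and 2.92% (mean of 8 to 32) of annotated transcripts passed. For assembled transcripts it was 1.27 at means under 2, 1.95 at 2 to 8, 2.67 at 8 to 32 and 4.91 at 32 or more. On this scale a low mean also bounds the size that a difference can reach. In the lowest and the highest class 3.62% and 7.47% of assembled transcripts passed, 160 of 4415 and 31 of 415. Without the locus MERGE.14292, 27 of 410 passed in the highest class (6.59%), with a median size of 4.71. Of the 160, 72 higher and 52 lower ones had passed the filter through 1 strain alone, against 5 and 2 of the 31. Among the 100 annotated transcripts of highest mean (485 or more), 4 passed, 3 higher and 1 lower in SHR, with log2 differences between -1.20 and 0.42. Among the 100 most abundant assembled transcripts (120 or more), 1 was higher and 1 lower, with log2 differences of 0.976 and -0.432. The large median size at means of 32 or more thus did not extend to these 100. Together the 337 transcripts called higher held 5.09% to 6.69% of the sum of a WKY library and 7.15% to 8.91% of that of a SHR library, and the 304 called lower held 1.14% to 1.36% and 0.449% to 0.579%. These sums follow from the calls and are a description.

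**Figure D3:**
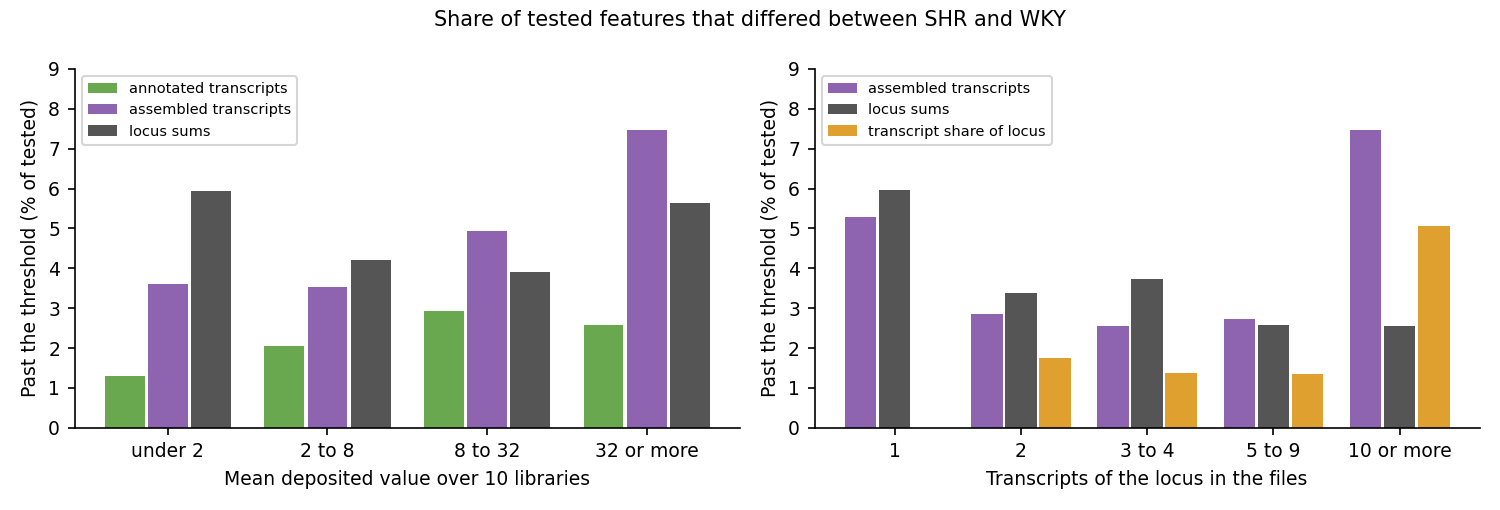
Share of tested transcripts or loci past the threshold (limma adjusted p under 0.05, y axis, %) by mean deposited value over the 10 libraries (left) and by the number of listed transcripts of the assembled locus (right). Assembled transcripts with a mean of 32 or more reach 7.47% on the left (6.59% without the locus MERGE.14292). Sums of single-transcript loci stand at 5.97% on the right against 2.57% for loci with 5 to 9 transcripts. Of the single-transcript loci past the threshold, 98 higher and 42 lower ones passed the filter through 1 strain alone. The shares are a description.

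To ask whether the differences held beyond single transcripts, values were summed over all listed MERGE transcripts of each assembled locus. Annotated transcripts carry no locus number and are not in these sums, and transcripts removed before deposit are missing too. A sum or share therefore need not describe the whole locus. The sum was at least 1 in at least 5 libraries for 7842 of the 10844 loci. Of these, 369 differed between the strains (limma adjusted p under 0.05 over loci, 4.71%), with 209 higher (2.67%) and 160 lower (2.04%) in SHR, and the unadjusted p was under 0.05 for 1050. Sums of the 2 strains did not overlap for 481 loci (6.13%), 347 of them among the 369. For 114 loci the sum was at least 1 in all 5 SHR libraries and under 1 in all 5 WKY libraries, and 58 showed the opposite. These loci passed the filter through 1 strain alone, so a difference was built into their selection, and limma called 111 and 54 of them. Leaving out sums at 0 throughout one strain, the median log2 difference was 1.5 for 197 loci that were higher and -1.12 for 150 that were lower. Without the 4 libraries that lay apart 267 loci passed, 231 of them shared with the 369.

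Most of the loci that differed held a single listed transcript. Such loci made up 241 of the 369 and 4036 of the 7842 tested, and 145 of the 241 were higher in SHR. Loci with 2 transcripts passed in 59 of 1751 cases (3.37%), those with 3 to 4 in 52 of 1393 (3.73%) and those with 5 to 9 in 15 of 584 (2.57%). Of the 78 loci with 10 or more transcripts, 1 rose and 1 fell. Of the 241, 98 higher and 42 lower ones had passed the filter through 1 strain alone, against 0 of the 15. A difference was built into the selection of such loci, so nothing is read from how these shares vary with the number of transcripts. Among single transcripts, 214 of 4036 passed in single-transcript loci (5.3%), 47 of 1713 in loci with 5 to 9 (2.74%) and 40 of 535 in loci with 10 or more (7.48%). Those called after passing the filter through 1 strain alone were 96 higher and 41 lower of the 214. They were 8 and 10 of the 47, and 8 and 11 of the 40. The locus MERGE.14292 alone gave 19 of the 40, and without it 21 of 504 passed (4.17%).

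Transcripts and locus sums were then set side by side. The 431 assembled transcripts that differed lay in 359 loci, of which 214 held 1 listed transcript and 145 held more. In 128 of the 145 the called transcripts had 1 direction. The sum moved the same way and passed in 58 of these, and in the other 70 it did not pass. For 47 of the 70 the 95% confidence interval of the sum's difference lay within 2-fold on the log2(value + 1) scale. At low sums this does not bound the fold of the sum itself. Conversely, 91 loci passed by their sum with no transcript called, 43 higher and 48 lower in SHR. Of the 91, 27 held a single listed transcript, which had the same values in both tests but another adjustment and another estimate of the spread. Another 27 held several listed transcripts of which none was tested, so no transcript of these could be called. The other 37 had at least 1 tested transcript and more than 1 listed.

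In 17 loci some transcripts were higher and others lower in SHR, with 26 higher and 39 lower transcripts in all. The sum of these loci was higher in 2 and lower in 4, and in 11 it did not pass. For 10 of the 11 the interval of the sum lay within 2-fold. The 17 loci held between 2 and 63 listed transcripts, with a median of 4.

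The share of a locus that each transcript carried was tested directly. It was taken as the log2 ratio of its value to that of the other listed MERGE transcripts. Of 6130 assembled transcripts, 109 differed in share (limma adjusted p under 0.05, 1.78%). The share was larger in SHR for 56 (0.914%) and smaller for 53 (0.865%), and the unadjusted p was under 0.05 for 590. They lay in 60 loci. In 27 of the loci transcripts moved both ways, 13 of them loci with 2 listed transcripts, where a gain of one is a loss of the other. The median absolute difference in mean share was 28.5 percentage points. For 37 transcripts in 25 loci the mean share was above 50% in one strain and below it in the other.

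The locus sum did not pass for 42 of the 60 loci, and for 32 of the 42 its interval lay within 2-fold. This test was less precise than that of the sums, with a median standard error of 0.486 against 0.190. Without WKY 5 it called 72 transcripts, and without the 4 libraries that lay apart 84, of which 46 were shared with the 109.

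**Figure D4:**
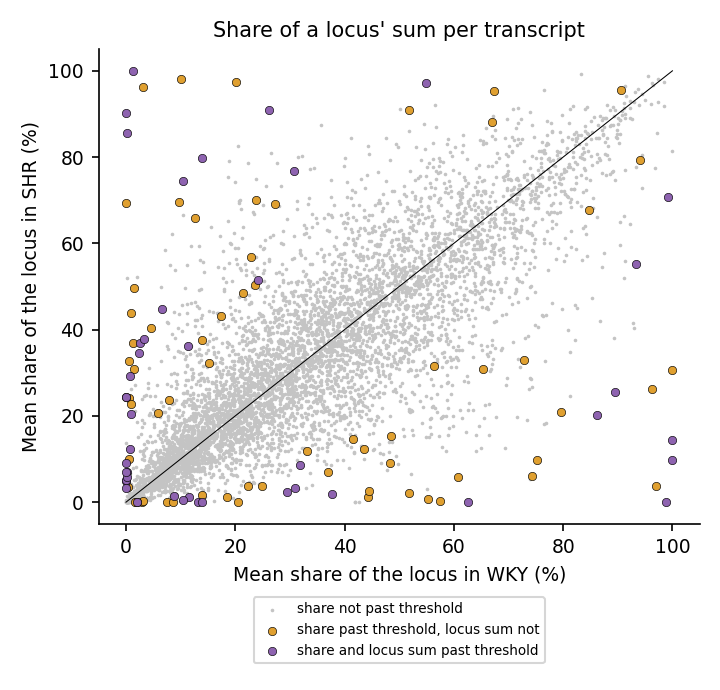
Mean share of the locus sum (%) in WKY (x axis) and SHR (y axis) for 6130 assembled transcripts, with the line of equal shares. Coloured points are the 109 transcripts whose share differed (limma adjusted p under 0.05), split by whether the sum of the locus passed as well, and 37 of them lie above 50% in one strain and below it in the other.

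MERGE.9036 shows a change of share in single libraries. This locus was picked with its values in view, as the one with the largest difference in share whose sum did not pass. It holds 2 listed transcripts at low values. The first stood at 2.68, 1.99, 2.19, 2.51 and 3.28 in WKY 1, 3, 4, 5 and 6 and at 0 to 0.134 in SHR. The second stood at 1.21, 1.84, 1.99, 1.32 and 1.85 in SHR 1, 2, 3, 4 and 6 and at 0 to 0.213 in WKY. The first transcript therefore held 97.0% ± 4.41 of the locus in WKY and 3.77% ± 3.52 in SHR (SD, n = 5 each). The limma adjusted p of its share was 5.33e-05. Each of the 2 transcripts passed the filter through 1 strain alone, so opposite shares were built into their selection and this p is a description. The sum was 2.60 ± 0.461 in WKY and 1.71 ± 0.381 in SHR (SD, n = 5 each). It ran from 2.19 to 3.28 in WKY and from 1.21 to 2.13 in SHR, so the strains did not overlap here either, although the sum did not pass over all loci. Its log2 difference was -0.41 (95% interval -0.72 to -0.10, limma adjusted p 0.175).

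MERGE.14292, the locus of the assembled transcript with the largest fall, changed both in its sum and in its makeup. The sum was 831, 644, 787, 911 and 925 in WKY 1, 3, 4, 5 and 6 and 316, 240, 130, 259 and 279 in SHR 1, 2, 3, 4 and 6. Every SHR library lay below every WKY library. The log2 difference was -1.79 (SE 0.224, limma adjusted p 0.000446). The locus was chosen for a transcript that is part of this sum, so part of the fall was built into the choice. The sum also holds 19 transcripts absent from the neferine files, and without them it did not pass (limma adjusted p 0.106). The p-value of the full sum is therefore a description.

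Of the 63 listed transcripts of MERGE.14292, 31 were tested, and 13 fell and 6 rose in SHR (limma adjusted p under 0.05), while 12 did not pass. The locus was chosen for holding the largest fall, and 10 of the 31 had passed the filter through 1 strain alone, so these counts are a description and nothing is read from their share. Of the 31, 4 were listed at 0 throughout SHR with values of at least 1 throughout WKY. The 13 that fell summed to 302 to 680 per WKY library (median 556) and to 4.61 to 30 per SHR library (median 8.35). The 6 that rose summed to 0.556 to 8.33 in WKY (median 2.17) and to 51.1 to 128 in SHR (median 67.2). The summed value of the other 44 was 226 to 366 in WKY and 74.1 to 224 in SHR. These sums follow from the calls and are given as a description. MERGE.14292.63 alone held 11% to 15.2% of the locus in the WKY libraries and 0% in SHR.

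The locus also shows what the choice of rows does. The files of the neferine-treated animals list 44 of the 63 transcripts. Over these 44 the sum was 291 to 530 in WKY and 130 to 316 in SHR, and its log2 difference of -0.86 did not pass (limma adjusted p 0.106). The 19 transcripts absent from those files summed to 301 to 529 in WKY and to 0.0621 to 1.72 in SHR.

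**Figure D5:**
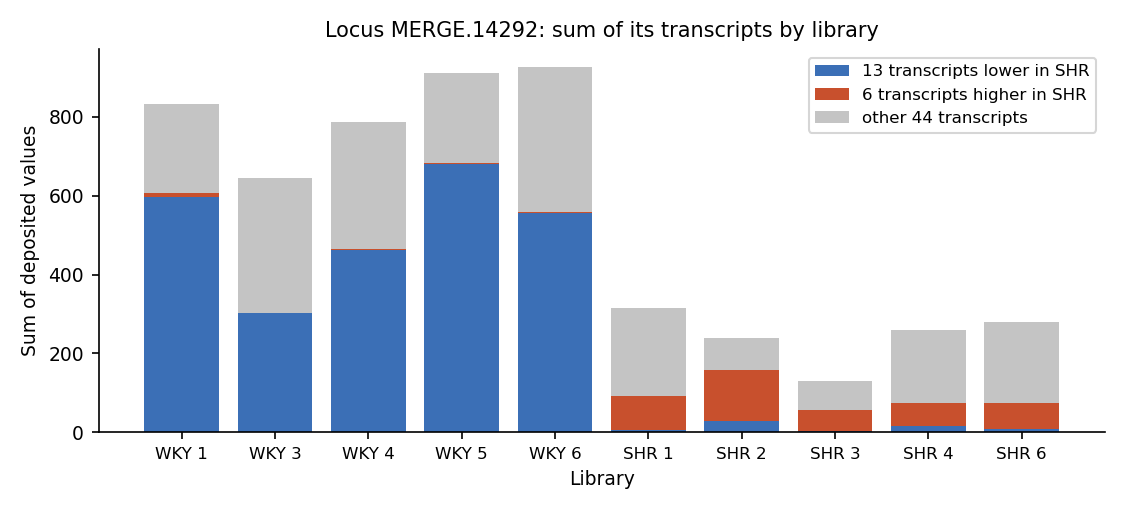
Sum of the deposited values (y axis) of the 63 listed transcripts of MERGE.14292 in each library (x axis), stacked as the 13 transcripts that fell in SHR, the 6 that rose and the other 44. The locus sums to 644 to 925 in the WKY libraries and to 130 to 316 in the SHR libraries.

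Transcripts absent from the neferine files bore on one direction. Of 1882 such transcripts, 1816 had a WKY mean of at least 0.5 and 1788 a SHR mean under 0.5, and 105 were tested. These rows are nearly all ones in which WKY reached a mean of 0.5 and SHR did not, and 85 of the 105 stayed under 1 in every SHR library while reaching 1 or more in every WKY library. A lower value in SHR was thus built into the selection, and the calls are a description: limma called 91 of the 105, all of them lower in SHR, 18 annotated and 73 assembled. A comparison limited to transcripts of both sets of files therefore loses part of the falls. Fitted on the shared rows alone, the share of calls that were higher in SHR was 53.3% for annotated transcripts, 67% for assembled transcripts and 68.2% for locus sums, against 48.1%, 54.8% and 56.6% over all rows.

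Neither of 2 measures of a whole library passed a test between the strains. Values of at least 1 were reached by 20501 ± 630 transcripts in WKY and 20530 ± 757 in SHR (SD, n = 5 each), with a two-sided exact permutation p of 0.96 (adjusted over 2 comparisons 0.96). Assembled transcripts held 18.0% ± 3.64 of the sum of values in WKY and 18.4% ± 3.00 in SHR (SD, n = 5 each; exact permutation p 0.905, adjusted 0.96). The smallest p that 5 against 5 libraries allow is 0.00794. Within strains the median SD of log2(value + 1) was 0.251 in WKY and 0.264 in SHR for annotated transcripts, and 0.385 and 0.404 for assembled ones.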

How the data were processed

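Libraries were made from heart RNA after removal of ribosomal RNA, per the labels' protocols. Each file deposited by the authors gives 1 library's normalised abundance signal per transcript. Aligner, quantification tool, build and annotation are not given in the sources used here, and limma is named in the submitters' processing notes without a role. Every listed transcript had a mean of at least 0.5 in one strain, so the rows had been filtered before deposit.

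The members and lists were chosen with earlier results of these data known. Values of the 10 WKY and SHR libraries were tested as log2(value + 1) with limma 3.58.1 in R 4.3.3 (variance trend, 1 mean per strain, no covariate), after the filter given above, with Benjamini-Hochberg adjustment over all transcripts, over all loci or over all shares. Locus sums took the identifier without its last number. Shares were log2((value + 1)/(other transcripts of the locus + 1)). Each test was tested on simulated data, where the test of shares missed many of the changes put in, and its pass criterion was relaxed after that was seen. Relative depth was read from values between 0.02 and 1.5 in windows of 0.005 on the log2 scale. Absolute depth is unknown.

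Named transcripts were the annotated and the assembled transcript with the largest rise and fall among those past the threshold, with a mean in the higher strain of 1 or more and no overlap between strains. Gene and marker lists planned by symbol could not be used, since 0 identifiers matched the RefSeq table of GRCr8. The alternatives were a pseudocount of 0.1, other filters, scaling, rows of both sets of files and the library number as a block. Other moderation, a threshold of 0.01 and the omission of libraries were run as well. Relative depth as a covariate was added after the data were seen.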

Additional observations from a re-analysis of the deposited data

Results flagged for a closer look

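Of 34 sets of 5 values that were searched for a single distant library, 1 had one, where chance gives about 1 in 20. Assembled transcripts held 24.52% of the sum of values in WKY 6, against at most 17.0% in the other 4 WKY libraries. SHR 1 and SHR 6 had 22.6% and 20.6%. Without WKY 6 the difference in this share between SHR and WKY was 2.04 percentage points in place of 0.414 (exact permutation p 0.349).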

How the results depend on the processing

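The 4 named transcripts kept their direction and passed under each alternative that could be run for them (20 or 21 each), and so did the locus MERGE.6140. They were chosen as the largest differences without overlap, and each named transcript passed the filter through 1 strain alone, so this says nothing about stability. The locus MERGE.14292 did so in 20 of 21 and failed on the rows also in the neferine files. With the library number as a replicate block limma called 299 of all transcripts in place of 641. Under the block 73 annotated transcripts passed in place of 210 and 226 assembled in place of 431. For locus sums 222 passed in place of 369, and for shares 27 in place of 109. WKY 5 and SHR 2 have no library of the same number in the other strain, so they do not inform this contrast. Fewer degrees of freedom remain as well, so power is lost. Deviations of same-numbered libraries correlated at -0.0901, 0.139, -0.0116 and 0.0747 for numbers 1, 3, 4 and 6, so the numbers were not taken to pair the libraries. An adjusted p under 0.01 left 397 transcripts, 105 annotated transcripts and 57 shares. Without the 4 libraries that lay apart, 421 transcripts and 109 annotated ones passed. On the rows also in the neferine files 65 shares passed. With 1 library left out the counts ranged from 516 to 608 for all transcripts, 152 to 198 for annotated, 358 to 410 for assembled, 318 to 365 for locus sums and 72 to 108 for shares. The difference in the share of assembled transcripts ranged from -0.637 to 2.04 percentage points and that in the number of detected transcripts from -174 to 301. That number differed by -101 when any value above 0 was counted and by 539 on the rows also in the neferine files (exact permutation p 0.222). With the replicate block it was 11.2 (exact permutation p 1). With relative depth as a covariate, 618 transcripts, 391 locus sums and 79 shares passed. The number of libraries and the low values of many assembled transcripts limit what could be detected.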
